A study of Mus musculus with 18 samples.

Results

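Translation initiation factors (eIFs) are the proteins that bring the small ribosomal subunit, the initiator tRNA and an mRNA together at a start codon. The genes described here are all those of the deposited count table whose symbol begins with Eif and a digit from 1 to 6, with pseudogenes (symbols ending in -ps) left out. The rule gave 56 genes of 54232 in the table. A further 10 pseudogenes matched and were excluded. Of the 56, 55 are protein coding. The other, Eif2c5, is a lincRNA on chromosome X that shares only the symbol pattern and has no assigned role in initiation.

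In cap-dependent initiation, eIF2 carries the initiator tRNA as a ternary complex with GTP, and eIF1, eIF1A, eIF3 and eIF5 hold it on the small subunit. The eIF4F complex, made of the cap-binding protein eIF4E, the scaffold eIF4G and the helicase eIF4A, recruits the capped mRNA, and eIF4B and eIF4H stimulate the helicase. The 4E-BPs compete with eIF4G for eIF4E, and phosphorylation of eIF2 by one of its kinases blocks its recycling by the exchange factor eIF2B. Round spermatids (RS) are haploid germ cells in which many mRNAs are transcribed early, stored without being translated and used later, when transcription has ceased. GRTH, also called DDX25, is a testis RNA helicase of these cells that has been linked to export, storage and translation of mRNA.

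RS were isolated by sedimentation through a BSA gradient from testes of mice aged 75 to 85 days, and their total RNA was made into strand-specific libraries without selection for poly(A). The 18 libraries comprised 6 from WT mice, 6 from KO mice, which lack GRTH, and 6 from KI mice, which carry a human GRTH gene with a missense mutation (arginine to histidine) and, per the study, lack the phosphorylated protein. The sources used here do not limit either change to a cell type of the testis. Nothing in the labels says whether libraries of a genotype came from separate animals, so the p-values measure the spread between these libraries, which may be partly technical.

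Library totals ranged from 18766971 to 26776555 counts. A level is in normalized CPM, which is a gene's count for every 1000000 counts of the library, whose total is first corrected with a TMM factor. Ddx25 had 538 to 607 CPM in WT and 47.7 to 90.9 in KO. It had 0.0456 to 0.519 in KI, except in the library labelled KI 4, which had 56.9, within the range of KO. This library and the library labelled KO 2 differed by only 1.59 times the counting noise, and 6 pairs within a genotype differed by 2.12 to 3 times, against 4.62 for the next pair, so these libraries may not be independent. Results of the members are therefore also given without KI 4 or with the close pairs summed where the call depends on them. The calls of cell type markers and of other genes outside the family come from the fit of all 18 libraries alone. Whether they depend on these libraries was not tested. The 9 markers of late spermatids summed to 15100 to 20900 CPM for WT, 1780 to 4470 for KO and 2350 to 3640 for KI, and all 9 were lower in both. The 5 markers of Leydig cells were all higher in both, from sums of 9.68 to 19.7 CPM in WT to 29.6 to 51 in KO and 13.2 to 65.7 in KI. Of the 9 RS markers, 0 were higher in either genotype, while 2 were lower in KO and 4 in KI. Over all genes tested, 16.4% were called higher and 13.5% lower in KO, and 16.1% and 15.4% in KI. Of 9 markers of pachytene spermatocytes, 2 were higher in KO, and 2 higher and 1 lower in KI. Of 7 markers of spermatogonia, 2 were higher in KO and 1 in KI. Of 7 markers of Sertoli cells, 2 were lower in KO and 1 in KI. Macrophages had 2 of 5 markers higher in each mutant, and endothelium 1 of 3. Of 2 red blood cell markers tested, 1 was lower in KO, and 1 was higher and 1 lower in KI. Several of these short lists thus held a larger share of called markers than all genes did. None of these markers was at 0 in all libraries. The part of these shifts in the results below was not tested. In bulk RNA, fewer cells of a type and less RNA per cell cannot be told apart.

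Of the 56 genes, 53 passed the filter on low counts and were tested among 21058 genes. The other 3 had almost no reads: Eif2c5 reached at most 5 counts in a library, Eif4e1b, the oocyte paralog of eIF4E, at most 2, and Eif4ebp3, a 4E-BP paralog, at most 9, with 67.3% of its exonic bases shared with Ankhd1 on the same strand. A gene was called where edgeR's quasi-likelihood test for a change of any amount gave a Benjamini-Hochberg adjusted p under 0.1 over all genes tested. Each standard error (SE) belongs to a log2 fold change.

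The members that fell most in both mutants were Eif4e, Eif4h, Eif1, Eif1ax and Eif4g1, which act in cap binding and scanning. They were at 0.405 to 0.544 times the WT level in KO and 0.365 to 0.501 times in KI. Their paralogs Eif4e2, Eif4g2, Eif4g3 and Eif1a were not called in either mutant, and nor were Eif4a1, 3 of the 4 eIF2 subunits and 11 of the 14 eIF3 genes. Of the 3 repressors of eIF4E tested, 2, Eif4ebp2 and Eif4enif1, were higher, as were Eif1b and Eif2b1, by 1.43 to 1.86 times in KO and 1.42 to 1.70 times in KI. In KO, 8 of 53 members were higher (15.1%), beside 16.4% of all genes tested, and 8 were lower (15.1%), beside 13.5%. In KI, 5 were higher (9.43%), beside 16.1% of all genes, and 12 were lower (22.6%), beside 15.4%. The share of members called was thus near that of all genes in KO. Their median log2 fold change was -0.03 in KO and -0.08 in KI, and that of all genes 0.03 and 0.05.

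No member was called in opposite directions in the 2 mutants. The 8 members lower in KO were all lower in KI, where they made up 66.7% of the 12, and 4 members were higher in both, which was 50.0% of those in KO and 80% of those in KI. KO and KI were compared with the same WT libraries, so these shares are not independent. The share of calls common to both mutants was not computed over all genes. Between KI and KO, only 0.076% of all genes were called higher and 0.0237% lower. The sharing is thus not shown to be particular to the members. Against a change of 1 log2 unit (glmTreat of edgeR), 0 members were called in either direction. For this test 0.598% of all genes were higher and 1.13% lower in KO, and 0.522% higher and 1.43% lower in KI. At an unadjusted p under 0.05 the same test named 1 member in KO, Eif4e, and 2 in KI, Eif4e and Eif1ax, all lower. DESeq2 also called 0, with 2 members at an unadjusted p under 0.05 in KO (Eif4e and Eif4h) and 1 in KI (Eif1ax), all lower.

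**Figure D1:**
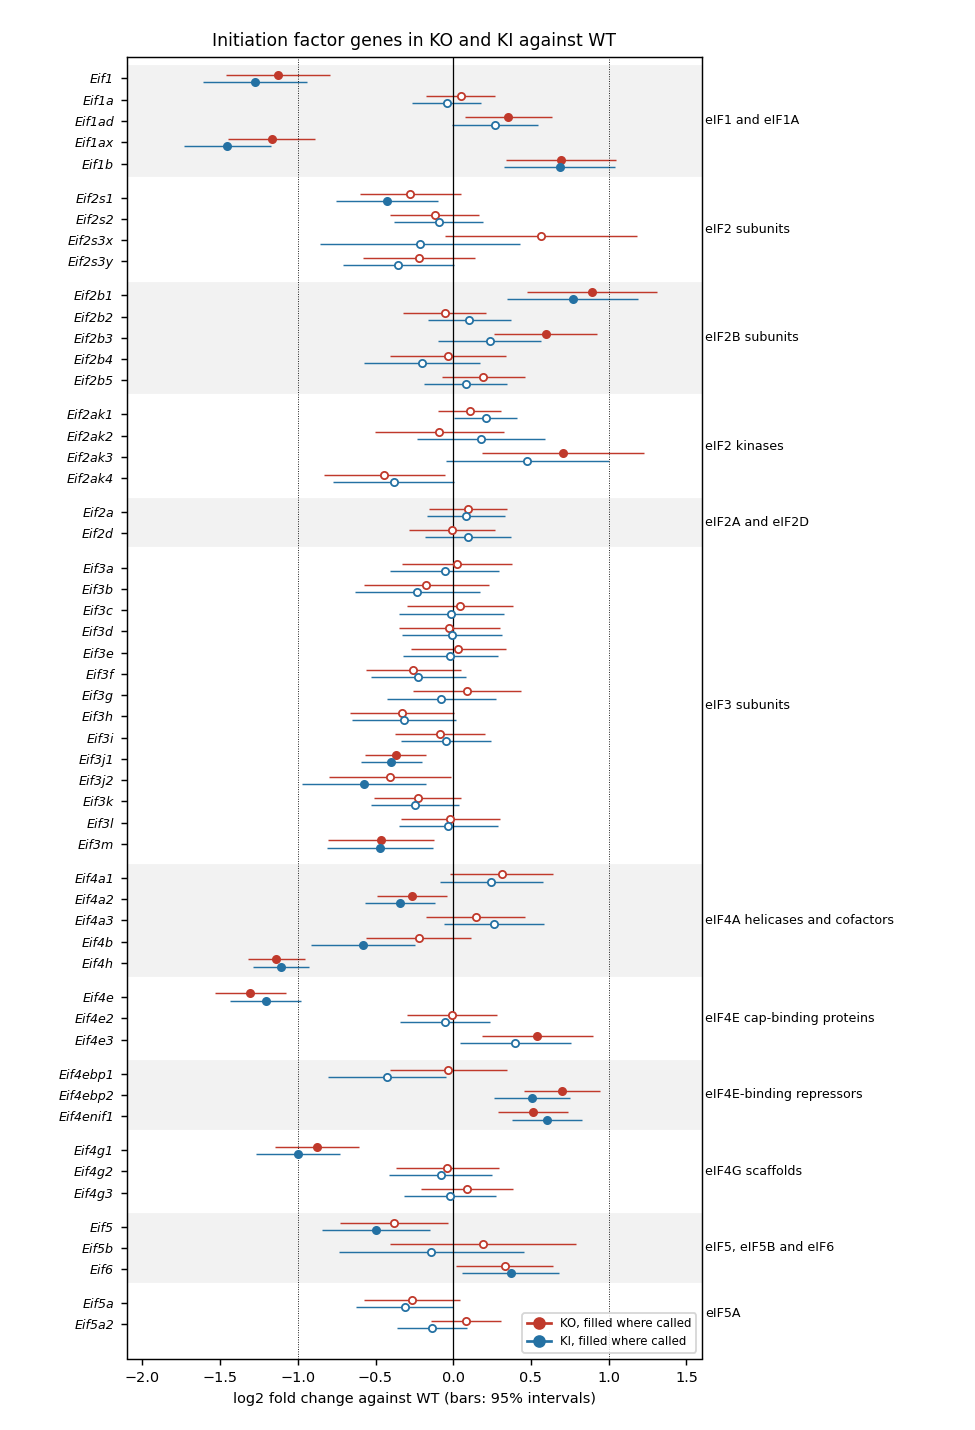
Log2 fold change against WT for the 53 members tested, in KO (red) and KI (blue), grouped by factor, with bars of 95% intervals (normal quantiles of the SE) and filled points where edgeR called the gene. Eif1, Eif1ax, Eif4h, Eif4e and Eif4g1 lie furthest to the left in both genotypes, near or past the dotted line at -1, while most of the 14 eIF3 subunits lie close to 0.

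Promoter windows are shown for the 5 members that fell most and for the 3 that rose in both mutants and have a single RefSeq promoter. They are shown because genes of RS are often driven by CREM through the cAMP response element (CRE) and genes of the translation machinery by factors of the MYC family through the E-box. The windows below hold the 200 bases before the RefSeq start site and 30 bases from it on, on GRCm38.p6, 5′ to 3′ on the gene's strand, in lower case. Capitals mark the CRE half-site TGACG and the E-box CACGTG, both searched on either strand. In Eif4e the marked run holds one of each, overlapping. Eif4e has a second, upstream RefSeq start with neither motif, which is not shown. The windows of Eif4e, Eif4g1 and Eif1b lie wholly inside the gene as GENCODE annotates it, downstream of its first base. For Eif4g1 the gene begins at 20668313 and the window at 20672527.
Eif4e (chr3:138527068-138527297, plus strand, lower in KO and KI): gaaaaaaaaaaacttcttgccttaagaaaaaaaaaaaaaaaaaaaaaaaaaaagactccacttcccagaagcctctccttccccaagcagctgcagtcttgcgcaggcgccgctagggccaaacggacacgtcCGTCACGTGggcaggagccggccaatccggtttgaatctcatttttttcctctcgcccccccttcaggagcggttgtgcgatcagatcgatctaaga
Eif4h (chr5:134639380-134639609, minus strand, lower in KO and KI): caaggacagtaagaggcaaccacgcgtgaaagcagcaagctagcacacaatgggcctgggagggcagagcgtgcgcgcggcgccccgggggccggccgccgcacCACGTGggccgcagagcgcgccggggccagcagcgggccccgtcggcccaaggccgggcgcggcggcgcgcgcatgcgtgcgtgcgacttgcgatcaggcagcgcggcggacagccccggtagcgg
Eif1 (chr11:100319749-100319978, plus strand, lower in KO and KI): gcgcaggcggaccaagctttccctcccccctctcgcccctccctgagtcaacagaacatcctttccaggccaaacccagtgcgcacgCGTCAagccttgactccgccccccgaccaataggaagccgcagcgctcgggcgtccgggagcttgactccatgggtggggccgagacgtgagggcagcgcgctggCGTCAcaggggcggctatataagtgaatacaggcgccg
Eif1ax (chrX:159371978-159372207, plus strand, lower in KO and KI): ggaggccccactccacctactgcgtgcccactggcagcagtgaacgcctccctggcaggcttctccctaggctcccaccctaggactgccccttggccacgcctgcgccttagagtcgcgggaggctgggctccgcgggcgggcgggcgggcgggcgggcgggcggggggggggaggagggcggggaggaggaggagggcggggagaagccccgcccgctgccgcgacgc
Eif4g1 (chr16:20672527-20672756, plus strand, lower in KO and KI): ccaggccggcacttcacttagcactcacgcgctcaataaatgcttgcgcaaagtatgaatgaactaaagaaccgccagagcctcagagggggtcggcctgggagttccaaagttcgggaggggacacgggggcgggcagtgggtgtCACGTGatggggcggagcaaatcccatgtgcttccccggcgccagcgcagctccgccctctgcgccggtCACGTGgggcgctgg
Eif1b (chr9:120492406-120492635, plus strand, higher in KO and KI): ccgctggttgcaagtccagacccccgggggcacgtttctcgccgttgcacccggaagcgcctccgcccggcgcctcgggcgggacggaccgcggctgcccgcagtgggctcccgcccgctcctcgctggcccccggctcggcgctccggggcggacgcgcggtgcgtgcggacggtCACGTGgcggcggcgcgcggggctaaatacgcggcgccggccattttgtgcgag
Eif2b1 (chr5:124579102-124579331, minus strand, higher in KO and KI): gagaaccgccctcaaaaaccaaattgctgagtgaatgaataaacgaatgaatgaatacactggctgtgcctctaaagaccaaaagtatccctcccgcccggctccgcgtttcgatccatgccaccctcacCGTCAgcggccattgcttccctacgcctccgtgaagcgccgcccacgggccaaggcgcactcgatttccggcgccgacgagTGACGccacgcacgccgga
Eif4ebp2 (chr10:61452640-61452869, minus strand, higher in KO and KI): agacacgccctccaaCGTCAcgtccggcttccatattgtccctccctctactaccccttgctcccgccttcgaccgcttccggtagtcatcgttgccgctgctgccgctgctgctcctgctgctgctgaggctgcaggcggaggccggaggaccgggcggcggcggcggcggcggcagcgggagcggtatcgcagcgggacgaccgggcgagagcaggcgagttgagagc

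Here the E-box stood in the windows of Eif4e, Eif4h and Eif4g1, with 2 copies in Eif4g1, and also in that of Eif1b, which rose. It was not found in the window of Eif4a2, the eIF4F helicase called lower in both mutants, which is not shown. The CRE half-site stood in Eif1 (2 copies), Eif4e, Eif4a2, Eif2b1 (2 copies) and Eif4ebp2. It also stood in 1 window of Eif4enif1, which rose in both mutants, has more than 1 RefSeq promoter and is not shown. Eif1ax held neither motif. Over the RefSeq promoters of all members, 57 windows of 44 genes, 43.9% held the CRE half-site, against 23.8% of those of genes tested and 17.9% of all RefSeq promoters. The E-box stood in 21.1%, against 7.58% of those of genes tested and 6.05% of all. Counted by gene instead of by window, 47.7% of the 44 members held the CRE half-site, against 27.5% of genes tested with a RefSeq promoter. By gene the E-box stood in 22.7% of members, against 8.92%. Other motifs were searched too. The GC box GGGCGG stood in 66.7% of member windows, against 49.8% of those of genes tested, and CCAAT in 26.3%, against 33.1%. A start of C followed by 4 pyrimidines was found in 5.26%, against 2.51%. A higher share in members is thus not particular to the CRE half-site and the E-box, and its cause was not tested. Of the 8 genes lower in both mutants, 3 held the CRE half-site and 3 the E-box, and of the 4 higher in both, 3 and 1. These matches describe the letters of the windows and not sites bound in RS.

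Eif4e, the protein that binds the mRNA cap, showed the largest fall in KO and lies at chr3:138526179-138559696 (plus strand, GRCm38). It had 201 to 253 CPM in WT (median 228), 84.9 to 99.3 in KO (median 92.7) and 82.3 to 121 in KI (median 95.8). Every WT library was above every KO and KI library. The log2 fold change was -1.31 in KO (SE 0.12, edgeR adjusted p = 3.21e-08) and -1.21 in KI (SE 0.12, edgeR adjusted p = 8.2e-08). Its paralog Eif4e2 (4EHP), which binds the cap but not eIF4G and is known as a repressor, had medians of 200.1 CPM for WT, 196 for KO and 182 for KI. Its log2 fold change was -0.01 in KO (SE 0.15) and -0.05 in KI (SE 0.15), not called. Eif4e3, another cap-binding paralog, was far less abundant, at 1.97 to 3.41 CPM for WT, 2.56 to 5.37 for KO and 2.74 to 4.53 for KI. It was called higher in KO (log2 fold change 0.54, SE 0.18, edgeR adjusted p = 0.0338) but lost the call without the library KO 4 (0.42, adjusted p = 0.106) or with the close pairs summed and KI 4 left out (0.47, adjusted p = 0.211), and in KI it was not called (0.40, SE 0.18). A share of 14.8% of its exonic bases overlaps another gene on the same strand.

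Per kb of exon, Eif4e made up 58.6% of the reads of the eIF4E family for WT, 36.5% for KO and 38.7% for KI, with ranges over libraries of 56.3 to 60.6%, 31.2 to 43.4% and 35.6 to 40.8%. Eif4e2 made up 39.8% for WT, 59.9% for KO and 57.9% for KI. Eif4e was the more abundant of the pair per kb in every WT library, and Eif4e2 in every mutant library.

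Eif4g1, the general scaffold of eIF4F, lies at chr16:20668313-20692884 (plus strand, GRCm38). It had 288 to 390 CPM in WT (median 342), 142 to 251 in KO (median 185) and 149.6 to 189.6 in KI (median 174), with no overlap between WT and either mutant. In KO the log2 fold change was -0.88 (SE 0.14, edgeR adjusted p = 6.52e-05) and in KI -0.998 (SE 0.14, edgeR adjusted p = 1.24e-05). Eif4g2 (DAP5), which lacks the eIF4E-binding site, had medians of 549 CPM for WT, 564 for KO and 481 for KI and was not called (log2 fold change -0.04 and -0.08, SE 0.17 in each). Eif4g3, whose loss stops spermatocytes in meiosis, had medians of 491, 541 and 533 CPM and was not called either (0.09 and -0.02, SE 0.15 in each). Per kb, Eif4g1 fell from 31.4% of the family in WT to 19.9% in KO and 19.4% in KI.

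Of the eIF4A group, 2 of 5 members were lower in KO and 3 in KI, with 0 higher. Eif4h, a cofactor of the helicase, had the smallest SE of the members tested in KO. It lies at chr5:134619721-134639490 (minus strand, GRCm38) and had 115.5 to 129 CPM in WT (median 124), 51.9 to 63.2 in KO (median 56.0) and 50.2 to 63.0 in KI (median 57.5). The lowest WT library was above the highest mutant library. Its log2 fold change was -1.14 in KO (SE 0.09, edgeR adjusted p = 7.84e-09) and -1.11 in KI (SE 0.09, edgeR adjusted p = 9.49e-09). Eif4b, the other cofactor, was lower in KI (-0.58, SE 0.17, edgeR adjusted p = 0.0158), with 66.2 to 99.95 CPM in WT and 42.4 to 66.5 in KI. This call was lost with the close pairs summed and KI 4 left out (-0.55, adjusted p = 0.244). In KO it was not called (-0.22, SE 0.17) but was with the library KO 1 left out (-0.42, edgeR adjusted p = 0.0315), where it had 111 CPM against 50.4 to 62.2 in the other KO libraries.

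Of the helicases, Eif4a2 was called. It had medians of 92.9 CPM for WT, 74.98 for KO and 72.4 for KI and was lower in both, by a log2 fold change of -0.27 (SE 0.11, edgeR adjusted p = 0.098) and -0.34 (SE 0.11, edgeR adjusted p = 0.0317). The KO call was lost in 13 of 18 fits that left out 1 library, KI 4 among them (adjusted p up to 0.181, log2 fold change -0.32 to -0.24), and the KI call was lost in 1, without WT 3 (-0.27, adjusted p = 0.159). With the close pairs summed and KI 4 left out both were lost (-0.26 and -0.35, adjusted p = 0.389 and 0.321). Of its exonic bases 9.63% overlap small RNA and other genes on the same strand. Eif4a1, its close paralog, had medians of 69.2, 89.0 and 87.9 CPM and was not called (0.31 and 0.24, SE 0.17 in each), and nor was Eif4a3, a component of the exon junction complex (0.14 and 0.26, SE 0.16 in each). Per kb the pair was about even in WT, with Eif4a1 at 50.4% (45.9 to 56.7% over libraries). It was at 60.4% in KO (58.2 to 67.0%) and 60.1% in KI (48.1 to 70.3%), so Eif4a1 led in every KO library but not in every KI library.

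**Figure D2:**
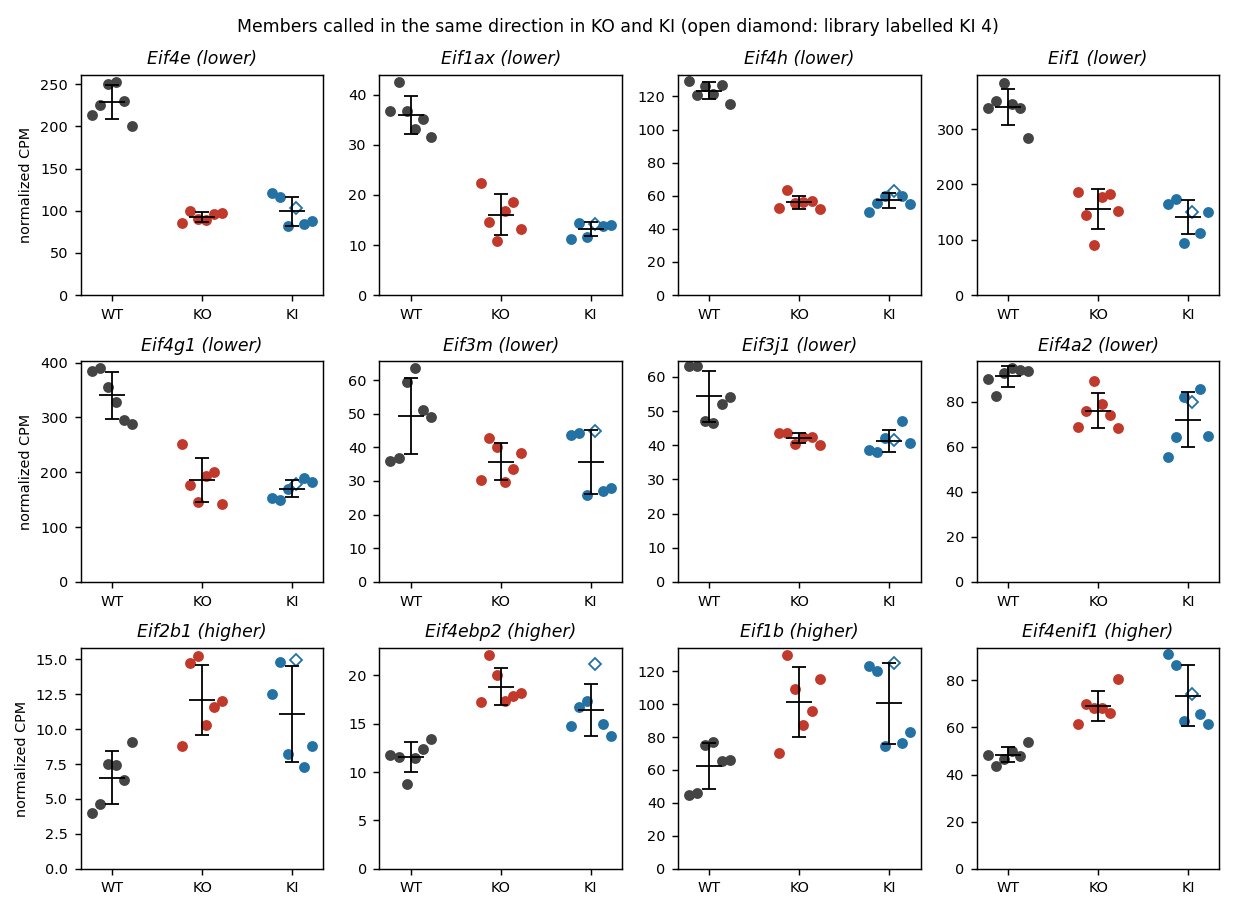
Normalized CPM in each library for the 12 members called in the same direction in KO and KI, with 6 libraries a genotype, the mean and SD in black and the library labelled KI 4 as an open diamond. Eif4e, Eif1ax, Eif4h, Eif1 and Eif4g1 lie above every mutant library in all 6 WT libraries, while Eif1b and Eif2b1 overlap between genotypes.

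Of the 3 eIF4E-binding repressors tested, 2 were higher in both mutants. Eif4ebp2 lies at chr10:61428491-61452661 (minus strand, GRCm38) and had 8.82 to 13.4 CPM in WT (median 11.7), 17.2 to 22.1 in KO (median 18.02) and 13.7 to 21.2 in KI (median 15.8). All KO and KI libraries were above all WT libraries. The log2 fold change was 0.70 in KO (SE 0.12, edgeR adjusted p = 0.000229) and 0.51 in KI (SE 0.12, edgeR adjusted p = 0.00393), and 0.42 in KI without KI 4 (adjusted p = 0.012). With the close pairs summed and KI 4 left out, the KI call was lost (0.43, adjusted p = 0.161). Eif4enif1 (4E-T), which carries eIF4E into the nucleus and into P-bodies, had 43.8 to 53.8 CPM in WT (median 48.2), 61.3 to 80.5 in KO (median 68.4) and 61.2 to 91.2 in KI (median 69.9), again without overlap. Its log2 fold change was 0.51 in KO (SE 0.11, edgeR adjusted p = 0.00202) and 0.60 in KI (SE 0.11, edgeR adjusted p = 0.000405). Eif4ebp1 had medians of 3.50 CPM for WT, 3.31 for KO and 2.39 for KI and was not called, with a log2 fold change of -0.03 in KO (SE 0.19) and -0.43 in KI (SE 0.19). Without KI 4 it was called lower in KI (-0.54, edgeR adjusted p = 0.0497).

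Eif1, the factor that keeps the scanning ribosome from stopping at wrong start codons, was the most abundant member per kb in WT, at 162 CPM per kb, and lies at chr11:100319885-100322096 (plus strand, GRCm38). It had 284 to 384 CPM in WT (median 342), 89.99 to 187 in KO (median 165) and 93.7 to 173 in KI (median 149.7), with no overlap. In KO the log2 fold change was -1.13 (SE 0.17, edgeR adjusted p = 3.96e-05) and in KI -1.28 (SE 0.17, edgeR adjusted p = 7.96e-06). Its close paralog Eif1b, at chr9:120492232-120495330 (plus strand, GRCm38), rose from 44.8 to 77.3 CPM in WT (median 65.8) to 70.3 to 129.7 in KO (median 102) and 74.4 to 125 in KI (median 102). The highest WT library was above 1 KO and 2 KI libraries. The log2 fold change was 0.70 in KO (SE 0.18, edgeR adjusted p = 0.00714) and 0.68 in KI (SE 0.18, edgeR adjusted p = 0.00729), and 0.61 in KI without KI 4 (adjusted p = 0.021). With close pairs summed and KI 4 left out the KI call was lost (0.62, adjusted p = 0.177). Eif1 made up 74.6% of the pair per kb in WT (69.7 to 80.4% over libraries), 45.2% in KO (30.7 to 58.8%) and 43.0% in KI (39.1 to 49.1%). Without division by exonic length, Eif1 kept the higher mean in every genotype. The means of Eif1 and Eif1b were then 340.4 and 62.5 CPM in WT, 155.7 and 101.2 in KO, and 140.6 and 100.4 in KI.

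Of the eIF1A pair, the X-linked copy fell and the autosomal copy was not called. Eif1ax, at chrX:159372178-159389928 (plus strand, GRCm38), had 31.6 to 42.5 CPM in WT (median 36.0), 10.8 to 22.4 in KO (median 15.7) and 11.3 to 14.3 in KI (median 13.9), with no overlap. The log2 fold change was -1.17 in KO (SE 0.14, edgeR adjusted p = 2.84e-06) and -1.45 in KI (SE 0.14, edgeR adjusted p = 1.15e-07), the largest change of any member. Eif1a had medians of 41.1 CPM for WT, 42.4 for KO and 38.0 for KI, with log2 fold changes of 0.05 and -0.04 (SE 0.11 in each). Eif1ax made up 32.7% of the pair per kb for WT, 17.2% for KO and 15.3% for KI. Eif1ad, a protein with an eIF1A-like domain, was called higher in KO (0.35, SE 0.14, edgeR adjusted p = 0.0777), a call lost in 8 of 18 fits that left out 1 library (0.27 to 0.45), with DESeq2, and with the close pairs summed and KI 4 left out (0.34, adjusted p = 0.317), and was not called in KI (0.27, SE 0.14).

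**Figure D3:**
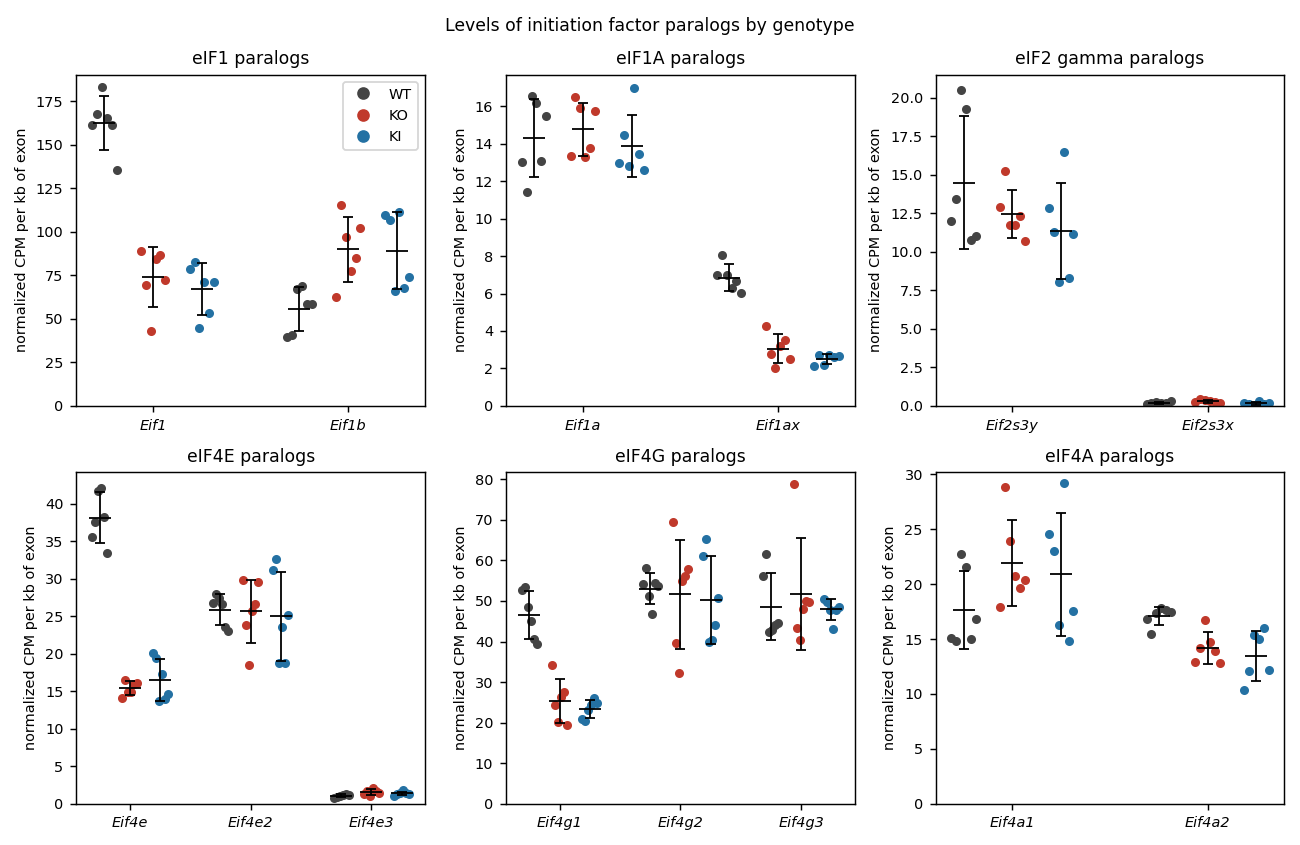
Normalized CPM per kb of exon for the paralogs of 6 initiation factors in each library, with the mean and SD in black. The means per kb of Eif1 and Eif1b cross over between WT and the mutants, as do those of Eif4e and Eif4e2. Without division by exonic length, Eif1 has a higher mean than Eif1b in every genotype. Eif2s3x lies near 0 in all genotypes.

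Of 4 eIF2 subunits tested, edgeR called 0 in KO, and in KI only Eif2s1, the alpha subunit that the stress kinases phosphorylate, was lower (-0.43, SE 0.17, edgeR adjusted p = 0.0658). Its levels ran from 117 to 149 CPM in WT and 59.6 to 140.1 in KI, and the call was lost in 7 of 18 fits that left out 1 library (-0.56 to -0.32, adjusted p up to 0.145), and with the close pairs summed and KI 4 left out (-0.42, adjusted p = 0.34). Eif2s2, the beta subunit, had medians of 151 CPM for WT, 133 for KO and 123 for KI. Of the gamma subunits, Eif2s3y on chromosome Y, which is needed for proliferation of spermatogonia, had medians of 52.8 CPM for WT, 50.1 for KO and 46.6 for KI, and its X-linked copy Eif2s3x 0.68, 1.06 and 0.65. Eif2s3y had log2 fold changes of -0.22 in KO (SE 0.18) and -0.35 in KI (SE 0.18), not called, but without KI 4 it was called lower in KI (-0.49, edgeR adjusted p = 0.0503). Per kb, Eif2s3y made up 98.6% of the pair for WT, 97.7% for KO and 98.6% for KI. The copies are alike in sequence, and how reads that match both were counted is not given in the sources used here, so the levels of Eif2s3x, which had 5 to 37 counts in a library, are uncertain. The excluded pseudogene Eif2s3x-ps1 on chromosome 15 had a median of 303 counts.

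The exchange factor eIF2B had 2 of its 5 subunits higher in KO and 1 in KI, with 0 lower. Eif2b1, the regulatory alpha subunit, lies at chr5:124570213-124579131 (minus strand, GRCm38) and had 4.02 to 9.11 CPM in WT (median 6.93), 8.78 to 15.2 in KO (median 11.8) and 7.29 to 14.99 in KI (median 10.6). The highest WT library was above 1 KO and 3 KI libraries. The log2 fold change was 0.89 in KO (SE 0.21, edgeR adjusted p = 0.00385) and 0.77 in KI (SE 0.21, edgeR adjusted p = 0.0106), and 0.66 in KI without KI 4 (adjusted p = 0.03). With close pairs summed and KI 4 left out the KI call was lost (0.67, adjusted p = 0.179). Eif2b3, the gamma subunit, had 2.65 to 4.001 CPM in WT and 4.16 to 5.94 in KO, with no overlap, and was higher by 0.60 (SE 0.17, edgeR adjusted p = 0.0129). With the close pairs summed this call too was lost (0.56, adjusted p = 0.106). The other 3 subunits had log2 fold changes between -0.20 and 0.19 over both mutants.

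Of the 4 eIF2 kinases, 1 was called. Eif2ak3 (PERK), the kinase of the endoplasmic reticulum, had 0.78 to 1.69 CPM in WT (median 1.08), 1.31 to 2.71 in KO (median 1.86) and 0.73 to 2.25 in KI (median 1.71), with overlapping ranges. It was higher in KO (0.71, SE 0.27, edgeR adjusted p = 0.059), lost the call in 4 of 18 fits that left out 1 library (0.58 to 0.84, adjusted p up to 0.148) and with the close pairs summed and KI 4 left out (0.73, adjusted p = 0.123), and was not called in KI (0.48, SE 0.27). Eif2ak4 (GCN2), which senses uncharged tRNA, had log2 fold changes of -0.44 (SE 0.20) and -0.38 (SE 0.20), not called. In KO it was called lower in 8 of 26 alternatives, among them DESeq2, the fit of only the genotypes compared and the replicate block. Eif2ak1 (HRI) and Eif2ak2 (PKR), the kinases that respond to lack of haem and to double-stranded RNA, had values between -0.09 and 0.21. The alternative initiator tRNA carriers Eif2a and Eif2d moved by at most 0.10.

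Most subunits of eIF3, the large complex that bridges mRNA and ribosome, were not called. They are 14 genes here, since Eif3j has 2 copies. In KO 2 were lower, 0 higher and 12 not called, and in KI 3 were lower, 0 higher and 11 not called. Log2 fold changes ran from -0.46 to 0.09 in KO and from -0.57 to -0.01 in KI, with medians of -0.13 and -0.15. Eif3c, the second most abundant member per kb, had medians of 554 CPM for WT, 591 for KO and 504 for KI, with a log2 fold change of 0.04 (SE 0.17) and -0.01 (SE 0.17). Eif3j1, of the loosely bound subunit that aids release of eIF3, was lower in both, from a median of 53.1 CPM in WT to 42.5 in KO and 41.0 in KI. The log2 fold changes were -0.37 (SE 0.10, edgeR adjusted p = 0.0095) and -0.40 (SE 0.10, edgeR adjusted p = 0.00513). Both calls were lost with the close pairs summed and KI 4 left out (-0.37 and -0.37, adjusted p = 0.124 and 0.217). Its copy Eif3j2, at 1.66 CPM in WT, made up 6.81% of the pair per kb and was lower in KI (-0.57, SE 0.20, edgeR adjusted p = 0.0411), a call lost without WT 1 (-0.48, adjusted p = 0.114) or WT 2 (-0.49, adjusted p = 0.108), or with the close pairs summed and KI 4 left out (-0.51, adjusted p = 0.304). Eif3j2 had 19 to 52 counts in a library, against 802 to 1576 for Eif3j1. Whether any of its counts are reads of Eif3j1 was not tested, so its level is uncertain. Eif3m was called lower in KO (-0.46, SE 0.17, edgeR adjusted p = 0.058) and KI (-0.47, SE 0.17, edgeR adjusted p = 0.0519), and each call was lost in 5 of 18 fits that left out 1 library (up to 0.144 in KO and 0.153 in KI). Both were lost with the close pairs summed and KI 4 left out (-0.43 and -0.55, adjusted p = 0.226 and 0.194).

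Eif5 and the factors that act at subunit joining and after were mostly not called. Eif5, the activator of eIF2's GTPase, was lower in KI, with medians of 446 CPM in WT and 324 in KI (log2 fold change -0.50, SE 0.18, edgeR adjusted p = 0.0439). The call was lost with the close pairs summed and KI 4 left out (-0.41, adjusted p = 0.431). In KO the median was 373 CPM (-0.38, SE 0.18, not called). It was called in KO with the library KO 1 left out (-0.52, adjusted p = 0.0257). Eif6, which keeps free large subunits from joining, was called higher in KI only just (0.37, SE 0.16, edgeR adjusted p = 0.0956) and lost the call in 10 of 18 fits that left out 1 library, KI 4 among them (0.29 to 0.47), with the replicate block, and with the close pairs summed and KI 4 left out (0.32, adjusted p = 0.466). Eif5b, the GTPase that joins the subunits, varied widely within WT and KO, from 153 to 417 CPM in WT and 161 to 682 in KO, and was not called (0.19 and -0.14, SE 0.30 in each). Eif5a, the hypusine-carrying factor that is now known to act in elongation, had medians of 234 CPM for WT, 197 for KO and 186.5 for KI and was not called (-0.27 and -0.31, SE 0.16 in each). Eif5a2 made up 2.43% of the pair per kb in WT and was not called.

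**Figure D4:**
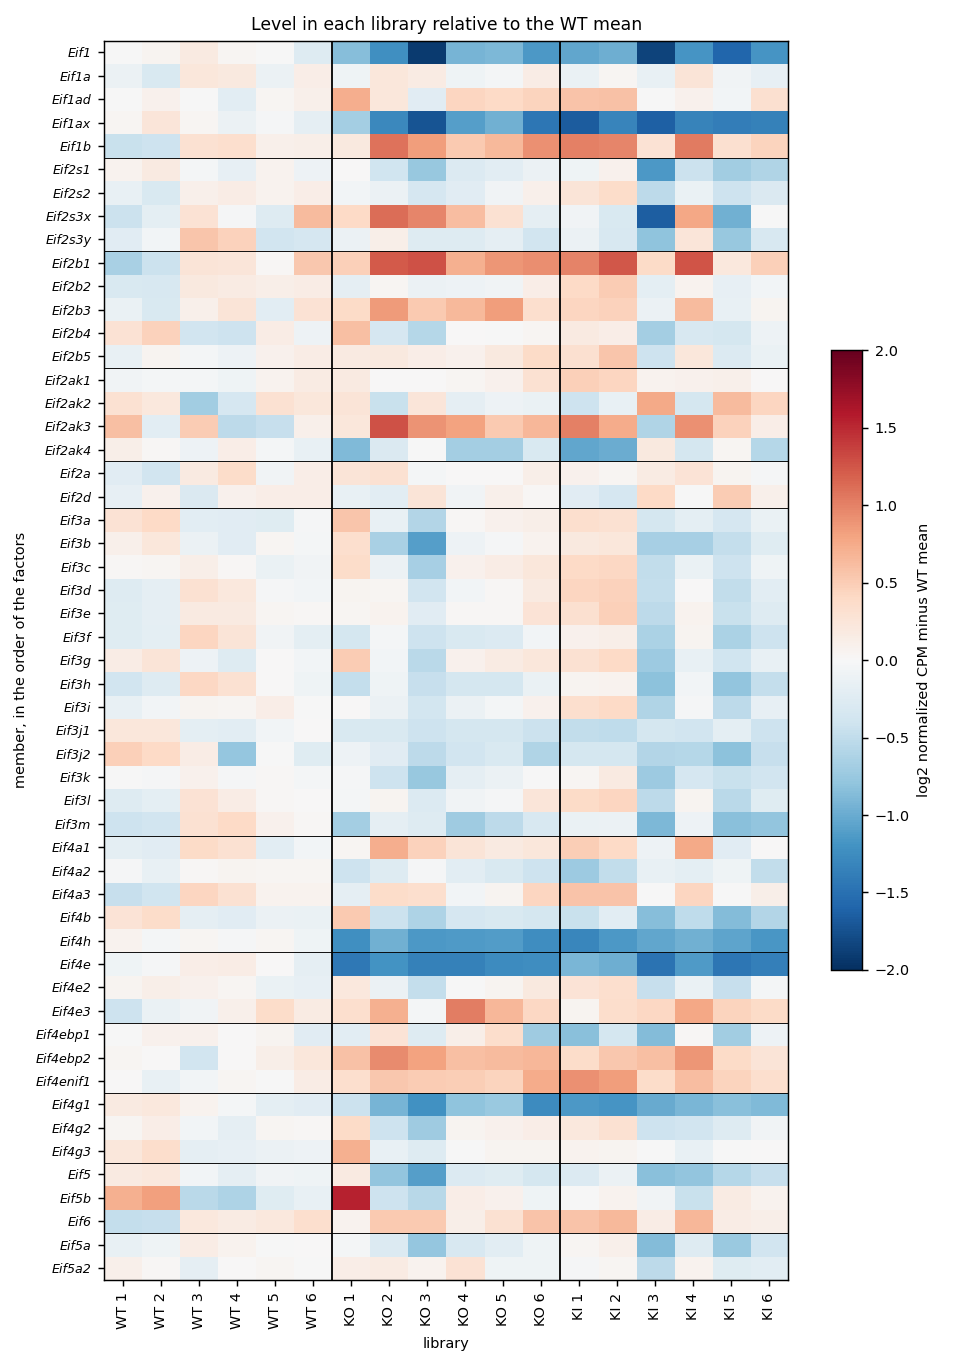
Log2 normalized CPM of the 53 members in each of 18 libraries, minus the mean of the WT libraries for the same gene, with rows ordered by factor and colours limited to 2 log2 units either side. The rows of Eif1, Eif1ax, Eif4h, Eif4e and Eif4g1 are blue in every KO and KI library, and pairs such as WT 1 and WT 2, or KI 1 and KI 2, resemble each other across rows.

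No member was called between KI and KO with edgeR: 0 of 53 were higher and 0 lower, beside 0.076% and 0.0237% of all genes, and the lowest adjusted p of edgeR over the members was 0.961. At an unadjusted p under 0.05 edgeR named 3, all lower in KI (Eif2b3, Eif4b and Eif2s3x), and DESeq2, which also called 0, named 1 (Eif2s3x). Log2 differences ran from -0.78 to 0.27, and 44 of the 53 lay within 0.2 of 0. For Eif4e the difference was 0.10, with a 95% interval from its SE of -0.13 to 0.32. For Eif1ax it was -0.29 (-0.57 to -0.0049), and for Eif4h 0.03 (-0.15 to 0.21). For Eif2s3x it was -0.78 (-1.40 to -0.16), with 0.65 CPM as the median in KI and 1.06 in KO. These intervals use normal quantiles and are narrower than the edgeR test implies. For Eif1ax that test gave an unadjusted p of 0.0587, although its interval leaves out 0. The differences above include KI 4, which resembles a KO library. Leaving out KI 4, again 0 members were called, beside 0.282% of genes higher and 0.24% lower. The log2 difference of Eif2s3x was then -1.08 (edgeR adjusted p = 0.192) and that of Eif2b3 -0.45 (edgeR adjusted p = 0.402). Eif4ebp1 had -0.51 (edgeR adjusted p = 0.412), while Eif2ak2 was higher in KI, at 0.36 (edgeR adjusted p = 0.622).

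Libraries of a mutant lay wholly above those of WT for 3 members in KO (Eif2b3, Eif4ebp2 and Eif4enif1), beside 6.62% of all genes, and wholly below for 6 (Eif1, Eif1ax, Eif3j1, Eif4e, Eif4g1 and Eif4h), beside 6.44%. In KI 2 were wholly above (Eif4ebp2 and Eif4enif1), beside 5.97%, and 5 wholly below (Eif1, Eif1ax, Eif4e, Eif4g1 and Eif4h), beside 7.91%. Of 16 calls in KO, 11 were kept in every fit that left out 1 library, and of 17 in KI, 12. Without the filter on low counts, Eif1ad, Eif2ak3 and Eif4a2 lost the call in KO, and Eif2s1, Eif3j2, Eif4a2, Eif5 and Eif6 in KI. With the close pairs summed and KI 4 left out, Eif1, Eif1ax, Eif4e, Eif4g1 and Eif4h remained lower in both, Eif1b, Eif2b1, Eif4ebp2 and Eif4enif1 remained higher in KO, and of these Eif4enif1 alone in KI.

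Levels of the members were high by comparison with the rest of the transcriptome. Per kb of exon the median of the 53 in WT was 17.7 CPM, against 2.35 for all genes tested, so that Eif1 (162), Eif3c (156), Eif3b (134), Eif3h (103) and Eif5a (98.4) lay above 97.3% or more of genes. Eif3b and Eif3c are core subunits of eIF3, and the SDs of Eif1 (15.5) and Eif3c (9.34) exceed the gap between them, so these neighbours do not differ beyond their spread. In KO and KI, Eif3c led at 160.1 and 154 CPM per kb and Eif1 fell to 74.2 and 67.0. At the other end were Eif2ak3 (0.19), Eif2s3x (0.20) and Eif2b3 (0.51).

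Genes that act beside initiation factors showed a mixed pattern. Of 11 elongation and termination factors tested, 2 were higher and 3 lower in KO, and 2 and 4 in KI. Over all genes, 16.4% were called higher and 13.5% lower in KO, and 16.1% and 15.4% in KI. Some counts of the 4 lists lie near these shares and others above or below them, on lists of 11 to 16 genes tested. Eef1d, a subunit of the exchange factor of eEF1A, fell from a mean of 701 CPM in WT to 185.0 in KO and 144 in KI, with log2 fold changes of -1.92 and -2.28 (edgeR adjusted p = 8.04e-06 and 7.94e-07). Eef1g, another subunit of it, had -1.27 and -1.38. Etf1, the release factor that recognises stop codons, had log2 fold changes of -0.90 and -1.07. Of 12 regulators of eIF2 and eIF4E, which are kinases, phosphatase subunits and other proteins of their signalling, 5 were higher and 0 lower in KO, and 4 and 0 in KI, among them Dnajc3, a binder and inhibitor of eIF2 kinases (0.81 and 0.51), and Mknk2, a kinase of eIF4E (0.54 and 0.47). Of 12 poly(A)-binding proteins and partners, 5 were higher and 1 lower in each. The lower gene, Paip2, a protein that displaces poly(A)-binding protein from mRNA, had log2 fold changes of -0.92 and -1.05 while Paip1, which stimulates translation through eIF4G and poly(A)-binding protein, had 0.46 and 0.55. Of 16 scanning, scaffold and reinitiation partners, 4 were higher and 2 lower in KO, and 6 and 2 in KI, with Ddx3x, a helicase of scanning, at 1.26 and 1.10 and Ncbp2, the nuclear cap-binding subunit, at -0.68 and -0.69. Medians of the 4 lists lay at -0.12, 0.16, 0.44 and 0.18 in KO, in the order given, against 0.03 for all genes, and at -0.16, 0.22, 0.36 and 0.24 in KI, against 0.05.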

How the data were processed

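After trimming with cutadapt 3.4, the authors mapped the reads to GRCm38 with STAR 2.7.8a and summed them by strand on GENCODE M18 genes with featureCounts (Subread 2.0.1). The deposited values are raw counts for 54232 genes in 18 libraries, and they were used without change. Per the study, 6 RS samples of each genotype were used. Depth was 18766971 to 26776555 counts per library. Symbols came from GENCODE M21 on the same build and were found for 54165 genes. Counts of 3 or fewer in a library were taken as the floor, which covers counting error only, since PCR reads without molecular identifiers are not independent molecules.

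In R 4.3.3, edgeR 4.0.16 with limma 3.58.1 was used: filterByExpr by genotype, TMM factors, 1 quasi-likelihood model of genotype over all 18 libraries, glmQLFTest for a change of any amount and glmTreat against 1 log2 unit, with Benjamini-Hochberg adjustment over 21058 genes and a threshold of 0.1, the model and thresholds that the study gives for DESeq2. The method was tested on simulated counts with known changes between WT and KO. Levels are normalized CPM, and CPM per kb uses the exonic length in the deposited table. The likeness of 2 libraries is the median squared difference of gene counts over that expected from counting noise, over genes that had 20 or more counts in the pair, and pairs under 4 are called close. Promoters came from RefSeq on GRCm38.p6, which held those of 44 members.

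Alternatives were DESeq2 1.42.0, its size factors, omission of the count filter, a minimum of 10 counts in each library, fits of the compared genotypes alone, a block for the replicate number, a threshold of 0.05, close pairs summed with KI 4 left out, and each library left out in turn. Values in every library are given, as lowest, median and highest, for the 4 largest rises and falls called in each mutant, and levels by genotype for members of paralog sets. The other members are given by counts, ranges or fold changes, and partner genes by list. Members and lists were chosen with earlier results of these data known. Figures were drawn with Python and matplotlib. Translation itself, protein and miRNA levels were not analysed here.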

Additional observations from a re-analysis of the deposited data

Results flagged for a closer look

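Single libraries stood apart from the other 5 of their genotype for 9 of 159 combinations of member and genotype, by Dixon's test at 95%. Chance gives about 1 in 20, or 7.95 here. Of the 9, 3 were in the library KO 1. There Eif5b, the GTPase of subunit joining, had 682 CPM against 161 to 259 in the other KO libraries, Eif4g3 had 871 against 446 to 552, and Eif4b had 111 against 50.4 to 62.2. Without KO 1, Eif4b was called lower in KO (log2 fold change -0.42, edgeR adjusted p = 0.0315).

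Eif1 had 89.99 CPM in KO 3 against 145.5 to 187 in the other KO libraries, and kept its call without that library. Eif2b5, the catalytic subunit of eIF2B, had 77.4 CPM in KO 6 against 63.1 to 68.1. In the library labelled KI 4, Eif4g3 had 478 CPM against 529 to 558 in the other KI libraries. In WT, Eif1ad had 25.9 CPM in WT 4 against 29.9 to 32.2, Eif4ebp1 had 2.90 in WT 6 against 3.38 to 3.61, and Eif4ebp2 had 8.82 in WT 3 against 11.49 to 13.4. The cause of these values was not tested.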

How the results depend on the processing

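Over 159 member results, 4131 values were computed under the alternatives. Of these 4002 kept their side of the threshold, 93 lost the call, 36 gained one and 0 were called with a reversed direction. The 4002 include 240 values that were called in neither fit and had another sign. With close pairs summed and KI 4 left out (3 WT, 5 KO and 3 KI libraries), 4 members were higher and 5 lower in KO, and 1 higher and 5 lower in KI. These counts rest on fewer libraries by construction. With only the genotypes compared, 1 member, Eif1ax, was lower by more than 1 log2 unit in KI (edgeR glmTreat adjusted p = 0.049), as it was without KO 1 (0.0483) or KO 3 (0.042), against 0.108 with all libraries. Leaving out each library in turn gave 6 to 9 members higher and 6 to 9 lower in KO, 4 to 7 higher and 9 to 14 lower in KI, 0 to 1 lower by more than 1 log2 unit in KI, and 0 in the other counts past 1 log2 unit and in KI against KO. Another scaling moved the median of all genes by less than 0.1. Of 18 correlations between same-numbered libraries of different genotypes, 7 were over 0.1 (range -0.50 to 0.54). Libraries with different numbers were not compared in this way, so these values cannot decide whether the replicate numbers pair the libraries. With the replicate block 8 members were higher and 10 lower in KO, and 5 and 12 in KI, which kept 16 of 16 and 16 of 17 calls, Eif6 in KI being lost.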

Other observations

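Across the whole set, members took 0.608 to 0.692% of the counts on genes in WT, 0.475 to 0.772% in KO and 0.513 to 0.728% in KI, so the total over initiation factors overlapped between genotypes. Within partner genes, the X-linked and Y-linked copies of the scanning helicase Ddx3 both rose. The mean of Ddx3x over 6 libraries was 7.20 CPM (SD 1.42) for WT, 17.3 (SD 4.33) for KO and 15.5 (SD 4.17) for KI, and that of Ddx3y 3.72, 6.18 and 5.49. Their autosomal testis copy D1Pas1, at 196 CPM in WT, had log2 fold changes of 0.12 (SE 0.15) and 0.10 (SE 0.15) and was not called. Ctif, a scaffold of the nuclear cap-binding complex in translation, rose from 0.63 CPM to 2.02 in KO and 2.03 in KI (log2 fold changes 1.65 and 1.66, edgeR adjusted p = 4.98e-05 and 3.91e-05). These genes were chosen after their values were seen, from lists chosen with earlier results known.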
